A study of Mus musculus with 8 samples.

Results

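The 39 Hox genes of the mouse HoxA, HoxB, HoxC and HoxD clusters were compared between LLC1 cells and MLE12 cells. They were taken from a table of 43346 genes by name alone, as every gene called Hoxa, Hoxb, Hoxc or Hoxd followed by a number, with antisense genes left out. The set of genes to describe was chosen by looking at their LLC1 against MLE12 differences in these same libraries, so the differences of its members are given as a description and no p-value is printed for them. LLC1, the line of the Lewis lung carcinoma, arose in the lung of a mouse of the C57BL strain. MLE12 is a lung epithelial line from a tumour of a transgenic mouse in which the promoter of surfactant protein C drove the SV40 large T antigen. Both lines came from ATCC and were grown to approximately 80% confluence with no reagent added, so the 2 lines share growth to that density and the lack of any treatment. Each line is a single established culture line with 4 libraries, and the labels give neither the age nor the sex of the source animals.

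Hox genes encode transcription factors that bind DNA through a homeodomain and give cells their position along the body axis. In each cluster the genes lie in a row in the order of their paralog groups, and genes of low group number are switched on earlier and more anteriorly in the embryo than those of high number. In the lung, Hox genes of the low and middle groups are known mainly from the mesenchyme, and Hoxa5 is required for normal development of the airways. Genes of the highest groups are best known from limbs, the urogenital tract and the tail end of the trunk.

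The libraries held 46.8 to 55.3 M counts in LLC1 and 48.6 to 76.7 M in MLE12. Levels are given in CPM, counts relative to the TMM-scaled library size, as single library values or as mean ± SD (n = 4 per line). Where a pair of levels is given with no line named, LLC1 comes first. A count of 0 in a library allowed up to 3 counts, a level of 0.0381 to 0.0693 CPM, and over the 4 MLE12 libraries together 0.0107 CPM. Such floors and all counting intervals below cover counting error only. The fold bounds from these floors use the LLC1 mean with no allowance for its spread. If the mates of a fragment were counted apart, the floors are too low and the bounds too high. Log2 fold changes are LLC1 over MLE12 with the SE of an edgeR fit to all 18546 genes that passed its filter on low counts. A gene was called at an adjusted p under 0.05. The alveolar markers Sftpc, Sftpb and Nkx2-1 stood at 23.6, 32.4 and 147 CPM in MLE12 and at 0.154, 0.312 and 0.664 CPM in LLC1, so LLC1 came close to lacking the defining markers of alveolar type II cells. No label states that libraries of the same line are separate cultures, and the spread between them may be technical. Of the 3 leukocyte markers, Ptprc had 0 counts in LLC1 and 2 in MLE12, Lyz2 had 30 and 36, and Cd68 stood at 8.37 and 2.17 CPM. Of the 4 mesenchymal markers, Vim (3960.2 and 943 CPM), Col3a1 (1478 and 2.70 CPM) and Pdgfra (10.2 and 0.202 CPM) had the higher mean in LLC1, and Col1a1 (0.313 and 17.5 CPM) in MLE12. The part of these cell characters in the Hox differences was not tested.

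The lines differed most in the HoxD cluster, where LLC1 carried RNA of the genes from Hoxd3 to Hoxd10 and MLE12 had next to none. HoxC was below 1 CPM in both lines. HoxA and HoxB were present in both, with sharp differences at Hoxa11, Hoxb7 and Hoxb13. Of the 39 genes, 27 had enough counts to be tested, and 25 of these were called, 19 higher in LLC1 and 6 higher in MLE12. Over all genes tested 81.6% were called, 40.7% higher in LLC1 and 40.9% higher in MLE12. The genes with no call were Hoxb3 and Hoxb5. The libraries of the lines did not overlap for 24 of the 27 genes, against 76.3% of all genes tested. A called difference of at least 8-fold was found for 11 of the 27 toward LLC1 and for 1 toward MLE12, and over all genes tested for 6.64% and 8.31%. The median log2 fold change was 1.96 for the 27 and 0.02 for all genes tested. Genes with next to no counts in a line, among them all tested HoxD genes, passed the filter through the other line alone. Their direction was thus fixed by being tested. In RNA from whole cultures, fewer cells with a transcript and less transcript per cell cannot be told apart.

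Summed over the 39 genes, the level per kilobase of gene model was 70.5 to 75.1 CPM per kb in the LLC1 libraries and 19.8 to 22.0 in the MLE12 libraries. HoxD supplied 51.4% ± 0.110 of that sum in LLC1 (SD, n = 4) and 0.559% ± 0.248 in MLE12. HoxA supplied 32.1% ± 0.587 in LLC1 and 50.4% ± 2.06 in MLE12. For HoxB the shares were 15.7% ± 0.654 and 48.9% ± 1.83, although its summed level was close in the lines, at 11.4 ± 0.434 CPM per kb in LLC1 and 10.2 ± 0.380 in MLE12. HoxC stayed at 0.857% ± 0.104 and 0.172% ± 0.0971. The larger Hox sum of LLC1 was thus made of HoxD, at 37.3 ± 1.03 against 0.116 ± 0.0518 CPM per kb, and of HoxA, at 23.3 ± 0.821 against 10.5 ± 0.785 CPM per kb.

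**Figure D1:**
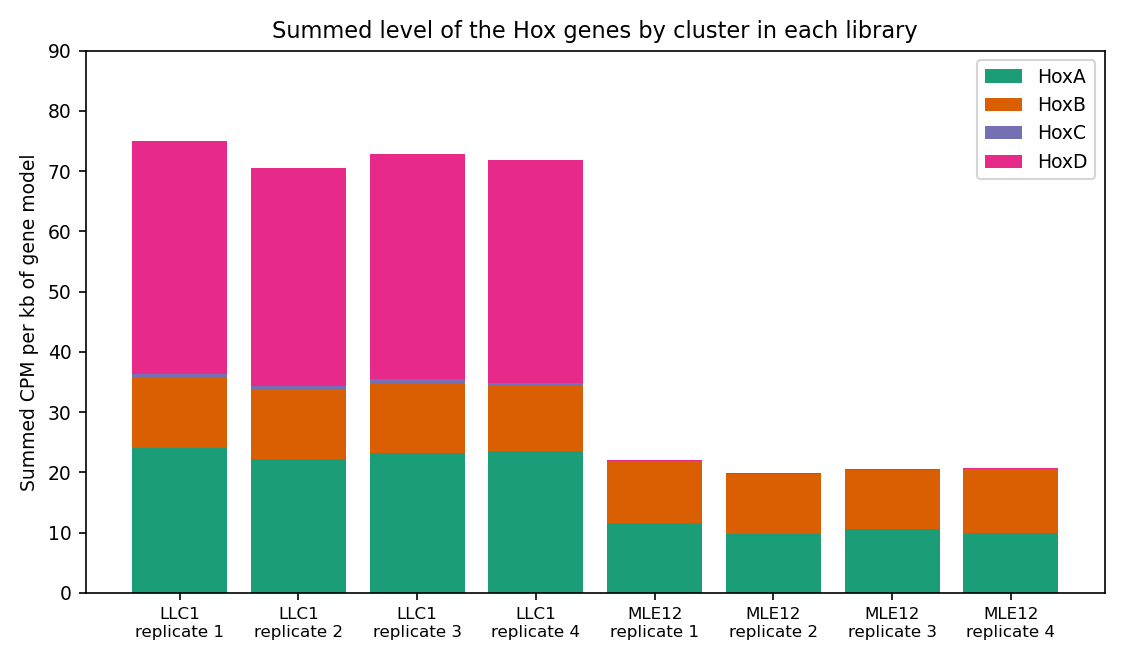
Summed level of the Hox genes in each of the 8 libraries, in CPM per kilobase of gene model on a linear axis, with each bar divided by cluster. The 4 LLC1 bars reach 70.5 to 75.1 and are 51.4% HoxD on average, and the 4 MLE12 bars reach 19.8 to 22.0 and consist almost wholly of HoxA and HoxB.

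HoxD (chromosome 2, 74668310 to 74765142, mm10, plus strand) holds 9 genes. Hoxd8, Hoxd9 and Hoxd10 lie next to each other in the middle of the cluster, and their products act in the trunk and the limbs. Because these 3 genes were abundant in LLC1 and at traces in MLE12, the 250 bases before their RefSeq start sites (build GRCm38.p6, which is mm10, plus strand) are shown, with each CG pair in capitals.
Hoxd8, chr2:74704365-74704614: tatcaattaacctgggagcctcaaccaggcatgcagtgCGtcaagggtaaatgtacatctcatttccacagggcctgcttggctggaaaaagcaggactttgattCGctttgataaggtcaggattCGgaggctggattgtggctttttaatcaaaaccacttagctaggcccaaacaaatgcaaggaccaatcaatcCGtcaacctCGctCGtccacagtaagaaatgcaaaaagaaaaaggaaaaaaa
Hoxd9, chr2:74697513-74697762: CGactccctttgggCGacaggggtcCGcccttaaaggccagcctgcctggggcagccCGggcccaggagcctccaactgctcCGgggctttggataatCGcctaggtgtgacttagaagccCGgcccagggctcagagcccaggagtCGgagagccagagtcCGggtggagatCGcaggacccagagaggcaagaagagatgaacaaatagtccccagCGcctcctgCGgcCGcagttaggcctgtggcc
Hoxd10, chr2:74691641-74691890: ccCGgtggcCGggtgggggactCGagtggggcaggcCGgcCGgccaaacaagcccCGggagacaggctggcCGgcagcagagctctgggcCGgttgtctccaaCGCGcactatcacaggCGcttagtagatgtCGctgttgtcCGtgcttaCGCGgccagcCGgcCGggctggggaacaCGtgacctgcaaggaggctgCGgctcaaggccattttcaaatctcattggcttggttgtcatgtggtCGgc
The Hoxd8 window holds 6 CG pairs, the Hoxd9 window 13 and the Hoxd10 window 20, against a median of 6 over all 32851 RefSeq windows of this length. The 3 genes were chosen for their like RNA pattern across the lines, and whether CG content has a part in it was not tested.

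Hoxd8 stood at 40.8, 38.7, 39.1 and 37.5 CPM in the LLC1 libraries and at 0.207, 0.133, 0.0761 and 0.200 CPM in the MLE12 libraries. Hoxd9 stood at 28.5, 25.5, 25.7 and 26.1 CPM in LLC1 and at 0.0388, 0.0398, 0.0761 and 0.160 CPM in MLE12. Hoxd10 stood at 9.89, 10.4, 12.3 and 11.1 CPM in LLC1 and at 0, 0.0265, 0 and 0.0400 CPM in MLE12. All 4 LLC1 libraries lay above all 4 MLE12 libraries for each of these genes, with log2 fold changes of 8.01 ± 0.13, 8.49 ± 0.16 and 9.39 ± 0.27. Per kilobase, Hoxd8 (14.2 ± 0.509 CPM per kb) and Hoxd9 (12.4 ± 0.641) were the 2 highest of all Hox genes in LLC1, and their libraries did not overlap each other. Hoxd10 (6.02 ± 0.571 CPM per kb) came next after Hoxa7 and overlapped with it (6.22 ± 0.578). The few MLE12 counts of Hoxd8, Hoxd9 and Hoxd10 amounted to 0.394%, 0.298% and 0.152% of the LLC1 level. Of 9594 genes with at least 10 CPM in LLC1, 162 had under 1% of that level in MLE12, none had exactly 0, and the lowest percentile ended at 0.380%. Whether the traces are RNA of MLE12 cells or reads from LLC1 libraries was not tested.

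Toward the low end of the cluster, Hoxd3 and Hoxd4, genes of the neck and hindbrain region, were also present in LLC1 and at traces in MLE12. Hoxd3 stood at 5.87, 4.81, 4.71 and 5.14 CPM in LLC1 and had 3 counts over the MLE12 libraries. The ratio of LLC1 to MLE12 was 479, with an exact 95% counting interval of 163 to 2327. Hoxd4 stood at 9.44 ± 0.459 and 0.0326 ± 0.0164 CPM, a log2 fold change of 8.12 ± 0.21. The split of reads between these neighbours is uncertain. Their gene models start 2 bases apart, and 62.8% of the exon bases of Hoxd3 and 52.3% of those of Hoxd4 are shared with other genes of the table.

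Outside the stretch from Hoxd3 to Hoxd10 the LLC1 level was lower on both sides. Hoxd11, the next gene toward the high end, stood at 1.16, 0.655, 0.434 and 0.609 CPM in LLC1, with no count in any MLE12 library. That made it at least 66.9-fold higher in LLC1, by the floor of 3 counts over the MLE12 libraries. Hoxd12 and Hoxd13, genes of the limb tips, had 12 and 8 counts over the LLC1 libraries and 0 in MLE12. Hoxd1, at the other end, had 10 counts in LLC1, all of them in replicate 4, and 0 in MLE12. These 3 genes had too few counts to be tested. The 6 tested genes of HoxD were all higher in LLC1, with a median log2 fold change of 8.45, or 8.30 with Hoxd11 set to its bound. They passed the filter on low counts through LLC1 alone, so their direction was fixed by being tested.

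The other transcripts of the HoxD cluster showed the same division. The deposited table lists 9 further genes between Hoxd13 and Hoxd1. Of these, 6 were tested, again having passed the filter through LLC1 alone, and all 6 were higher in LLC1. Together the 9 had 3922 counts over the LLC1 libraries and 14 over the MLE12 libraries. Hoxd3os1, an antisense transcript, stood at 8.02 ± 0.986 and 0.0195 ± 0.0168 CPM. Haglr, a long noncoding RNA beside Hoxd1, stood at 0.459 ± 0.217 CPM in LLC1 and had no MLE12 count, at least 43.1-fold higher. The nearest tested genes outside the cluster did not share this division, but genes with too few counts were passed over in choosing them. Mtx2, which encodes a mitochondrial import protein and lies 60661 bases beyond Hoxd1, stood at 56.7 and 40.4 CPM (log2 fold change 0.49 ± 0.06). Lnp, 88875 bases beyond Hoxd13, stood at 37.0 and 30.6 CPM (0.28 ± 0.06). The pseudogene Mrpl23-ps1, nearer to Hoxd13 at 76401 bases, stood at 4.15 and 0.874 CPM (2.26 ± 0.15). The 6 nearest tested genes around HoxD, up to 756984 bases away, had log2 fold changes from -0.19 to 2.26. Among the tested genes inside the cluster that had MLE12 counts, the smallest log2 fold change was 7.10 ± 0.48, for Gm14396. The 43.1-fold of Haglr is a lower bound and not a measured difference. Strand use in the counting is not stated, so reads of antisense and overlapping sense genes cannot be told apart.

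**Figure D2:**
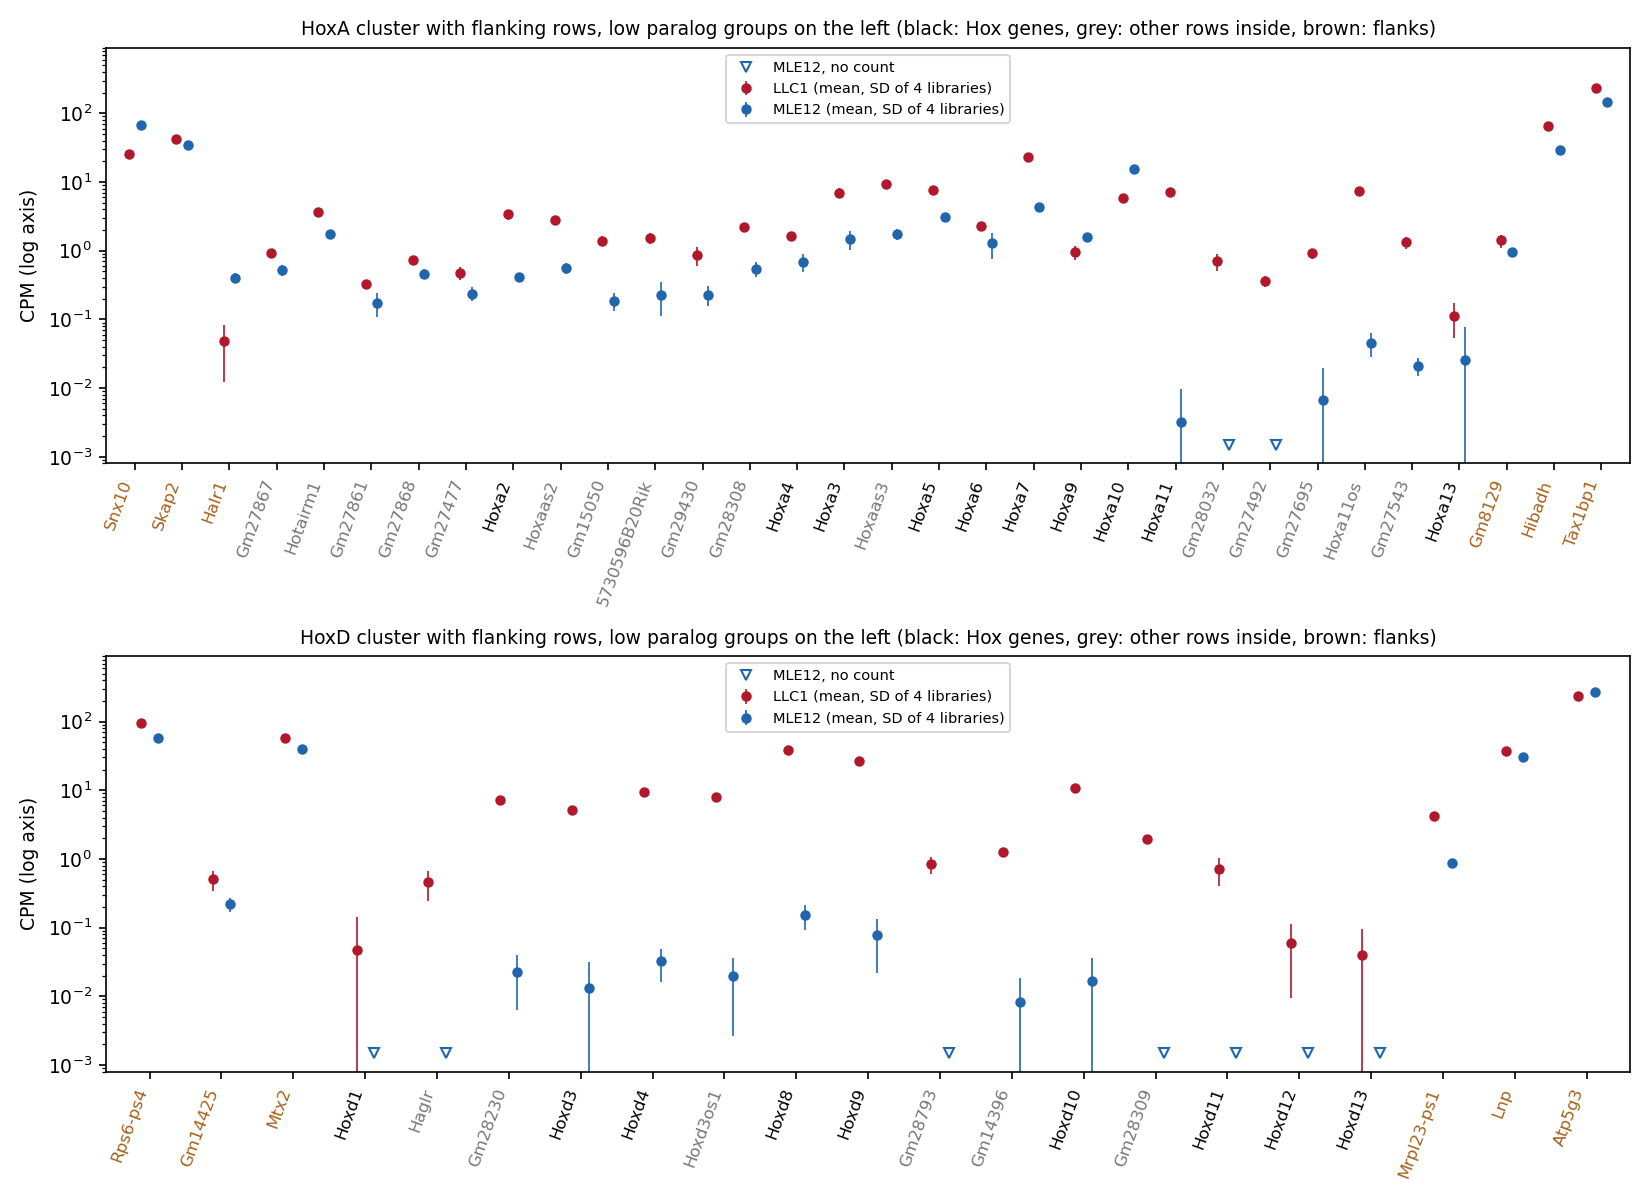
Mean CPM on a log axis with the SD of 4 libraries for the named Hox genes of HoxA and HoxD (black names), the other tested genes inside these clusters (grey) and the 3 nearest tested genes on each side (brown), in the order of the midpoints of the gene models with the low paralog groups on the left, which puts Hoxa4 before Hoxa3. Lower bars run to the axis where the SD is as large as the mean, and open triangles stand for no count in 4 libraries. In HoxD the MLE12 points drop to traces from Hoxd1 to Hoxd13 and are higher at the tested genes of both flanks. In HoxA the drop begins at Hoxa11. Flanking genes with too few counts to be tested are not drawn.

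HoxA (chromosome 6, 52155590 to 52260880, minus strand) holds 11 genes, and 10 were tested. Of these 8 were higher in LLC1 and 2 in MLE12, with a median log2 fold change of 1.61. The difference changed in size and sign along the row. From Hoxa2 to Hoxa7 every gene was higher in LLC1, Hoxa9 and Hoxa10 were higher in MLE12, and Hoxa11 was present in LLC1 with a single count in MLE12.

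Hoxa3, a gene of the pharyngeal region, stood at 8.41, 5.93, 6.32 and 7.29 CPM in LLC1 and at 1.40, 1.21, 2.12 and 1.18 CPM in MLE12. The lines did not overlap, and the log2 fold change was 2.23 ± 0.17. Hoxa2 had a log2 fold change of 3.03 ± 0.19, and Hoxa4 one of 1.24 ± 0.23. Of the exon bases of Hoxa3, 27.1% are shared with other genes, antisense genes among them.

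Hoxa5, the member best known for its part in the lung, stood at 7.42, 7.24, 8.31 and 7.55 CPM in LLC1 and at 3.58, 2.84, 2.72 and 3.32 CPM in MLE12. It was thus present in both lines and 1.30 ± 0.11 higher in LLC1 on the log2 scale. Hoxa6 had the smallest called difference of the cluster toward LLC1 (0.77 ± 0.23), and its libraries overlapped, with 1.96 to 2.45 CPM in LLC1 and 0.660 to 1.97 in MLE12. Hoxa7 was the most abundant HoxA gene of LLC1, at 25.6, 20.9, 24.7 and 22.4 CPM, against 4.79, 3.87, 4.34 and 4.28 CPM in MLE12. Its log2 fold change was 2.43 ± 0.09.

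At the next genes the direction turned. Hoxa9, known for its part in blood cell progenitors and leukaemia, stood at 0.965 ± 0.224 and 1.58 ± 0.220 CPM (-0.69 ± 0.20). Hoxa10, a gene of the reproductive tract, stood at 7.07, 5.58, 5.35 and 5.59 CPM in LLC1 and at 15.7, 13.96, 15.8 and 15.6 CPM in MLE12 (-1.38 ± 0.09). The MLE12 libraries of Hoxa10 all lay above those of LLC1, and per kilobase it was the highest Hox gene of MLE12, at 4.67 ± 0.270 CPM per kb. Hoxa11, a gene of limb and uterus, stood at 6.61, 6.77, 7.40 and 7.57 CPM in LLC1. It had 1 count in MLE12 replicate 1 and 0 in the other 3 libraries. The ratio was 2000 with an exact 95% counting interval of 358 to 79045, so its size is known only roughly. Hoxa11 shares 35.0% of its exon bases with the antisense gene Hoxa11os. Only 1251 bases separate the gene models of Hoxa10 and Hoxa11, the highest Hox gene of MLE12 and one close to absent from it. The 250 bases before the start sites of both (GRCm38.p6, minus strand) are shown, with CG pairs in capitals.
Hoxa10, chr6:52240855-52241104: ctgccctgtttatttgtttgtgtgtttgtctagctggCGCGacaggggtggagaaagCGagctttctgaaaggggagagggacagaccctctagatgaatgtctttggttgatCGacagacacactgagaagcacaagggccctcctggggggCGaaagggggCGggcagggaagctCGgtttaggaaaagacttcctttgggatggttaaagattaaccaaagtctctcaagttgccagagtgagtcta
Hoxa11, chr6:52245811-52246060: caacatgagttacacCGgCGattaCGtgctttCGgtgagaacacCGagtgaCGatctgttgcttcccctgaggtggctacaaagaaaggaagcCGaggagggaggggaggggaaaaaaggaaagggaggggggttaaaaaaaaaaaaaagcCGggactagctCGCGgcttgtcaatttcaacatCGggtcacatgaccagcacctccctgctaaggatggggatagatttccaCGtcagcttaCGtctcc
The Hoxa10 window holds 7 CG pairs and the Hoxa11 window 13. Hoxa13, the last gene of the row, had 22 counts over the LLC1 libraries and 8 in MLE12, all 8 in replicate 1, and was not tested.

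Of the other 21 genes listed inside HoxA, 16 were tested and all 16 were higher in LLC1, against 40.7% of all genes tested. The 16 do not count as separate transcripts. Several are short RNA models within the span of Hotairm1, such as Gm27867 (125 bases), or of Hoxa11os, such as Gm28032 (96 bases). Gm28032 and Gm27492 had no MLE12 count, and Gm27695, Gm27543 and Hoxa11os had 2, 6 and 13 over the MLE12 libraries. These genes passed the filter through LLC1 alone, so their direction was fixed by being tested. The 16 were thus not all free to go either way, and their count cannot be weighed against the 40.7%. At the low end the antisense transcript Hotairm1 stood at 3.63 ± 0.323 and 1.76 ± 0.0856 CPM (1.05 ± 0.13). In the middle Hoxaas3 stood at 9.44 ± 0.867 and 1.73 ± 0.311 CPM (2.44 ± 0.13). Beside Hoxa11, Hoxa11os stood at 7.43 ± 1.01 and 0.0457 ± 0.0171 CPM (7.27 ± 0.23). The 6 nearest tested genes around HoxA went in both directions, from -2.96 ± 0.49 for the noncoding gene Halr1, at the low end, to 1.16 ± 0.06 for the metabolic enzyme gene Hibadh, on the side of Hoxa13.

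HoxB (chromosome 11, 96194316 to 96368256, plus strand) holds 10 genes, of which 9 were tested. Of these 3 were called higher in LLC1 and 4 in MLE12, and 2 had no call, with a median log2 fold change of -0.02. Most of the row from Hoxb2 to Hoxb9 was thus present in both lines at similar summed levels, and some neighbours went in opposite directions.

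Hoxb2, which acts in the hindbrain, stood at 5.50, 5.20, 5.02 and 6.15 CPM in LLC1 and at 1.33, 1.46, 1.56 and 1.24 CPM in MLE12 (1.96 ± 0.13). Hoxb3 stood at 9.42 ± 0.718 and 8.87 ± 0.585 CPM (0.09 ± 0.08) and was not called. It shares 52.9% of its exon bases with the antisense gene Hoxb3os. Hoxb4, a regulator of blood stem cells, stood at 4.61 ± 0.473 and 7.75 ± 0.636 CPM (-0.75 ± 0.10), and per kilobase it was second in MLE12 (3.02 ± 0.248 CPM per kb). Hoxb5, which is expressed in lung mesenchyme, stood at 1.02, 0.973, 0.765 and 1.39 CPM in LLC1 and at 0.944, 0.981, 1.02 and 1.30 CPM in MLE12. The ranges of Hoxb5 overlapped almost fully, and its log2 fold change was -0.02 ± 0.22.

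Hoxb6 and Hoxb7 differed in opposite directions, although 2313 bases separate their gene models. Hoxb6 stood at 0.347, 0.711, 0.682 and 1.05 CPM in LLC1 and at 2.48, 2.31, 1.93 and 2.50 CPM in MLE12 (-1.70 ± 0.23). Hoxb7 stood at 5.13, 5.35, 6.01 and 4.45 CPM in LLC1 and at 0.310, 0.239, 0.343 and 0.420 CPM in MLE12 (4.02 ± 0.18). For both genes the lines did not overlap, and neither gene shares exon bases with another gene of the table. Hoxb8 stood at 3.31, 2.58, 2.46 and 2.19 CPM in LLC1 and at 0.931, 0.729, 1.14 and 1.20 CPM in MLE12 (1.40 ± 0.19). Hoxb9 stood at 1.69, 1.93, 1.53 and 1.60 CPM in LLC1 and at 3.57, 3.74, 4.19 and 3.64 CPM in MLE12 (-1.17 ± 0.14). Going from Hoxb6 to Hoxb9, the line with more RNA therefore changed at Hoxb7 and again at Hoxb9.

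Hoxb13, a gene of the prostate, the hindgut and the tail, was the one Hox gene close to absent from LLC1 and present in MLE12. It stood at 0.0231, 0.0935, 0.0413 and 0.0381 CPM in LLC1, which is 10 counts over 4 libraries, and at 2.33, 2.53, 2.18 and 2.04 CPM in MLE12. The log2 fold change was -5.44 ± 0.30. Hoxb13 lies 74009 bases from Hoxb9, and the other genes of paralog groups 12 and 13 averaged at most 0.112 CPM in either line. Of the 9 other genes listed inside HoxB, 5 were tested. LLC1 was higher for 2 of them and MLE12 for 1, and 2 had no call. In the interval between Hoxb9 and Hoxb13, the noncoding gene Gm53 was higher in MLE12 (0.283 and 0.536 CPM, -0.93 ± 0.34) and the pseudogene Gm11539 higher in LLC1 (15.9 and 10.02 CPM, 0.66 ± 0.07). At the other end Hoxb1 had 0 counts in LLC1 and 2 in MLE12. Of the 6 nearest tested genes around HoxB, 5 were higher in MLE12 and 1 was not called. Among them Ttll6, 28865 bases past Hoxb13, stood at 0.0422 and 0.436 CPM (-3.22 ± 0.60).

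HoxC (chromosome 15, 102921103 to 103036852, plus strand) holds 9 genes, and none reached a mean of 1 CPM in either line. Hoxc6, active in the thoracic region and in mammary tissue, was the highest. It had 34, 39, 27 and 23 counts in the LLC1 libraries, 0.438 to 0.786 CPM, and no count in MLE12, at least 58.9-fold higher. Hoxc4 had 15, 11, 13 and 20 counts in LLC1 and 2 over the MLE12 libraries, a ratio of 42.0 with an exact 95% counting interval of 11.1 to 355. These 2 were the tested members, and both were higher in LLC1, the line through which alone they passed the filter. Hoxc5, Hoxc8 and Hoxc9 had 40, 28 and 41 counts over the LLC1 libraries and 2, 0 and 12 over those of MLE12. Hoxc10 and Hoxc11 had 10 and 6 counts in LLC1 and 0 in MLE12, Hoxc13 had 0 and 8, and Hoxc12 had none. Most LLC1 counts of HoxC thus lay in the row from Hoxc4 to Hoxc9. The 7 other genes listed inside HoxC had 1 count in LLC1 and 1 in MLE12, the latter in Hotair, a long noncoding RNA studied for its link to Polycomb proteins. The flanking genes were taken among tested genes, so silent ones were passed over. Among them were Cbx5, the heterochromatin protein HP1 alpha, at 440 and 313 CPM and the splicing factor gene Hnrnpa1 at 909 and 491 CPM.

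**Figure D3:**
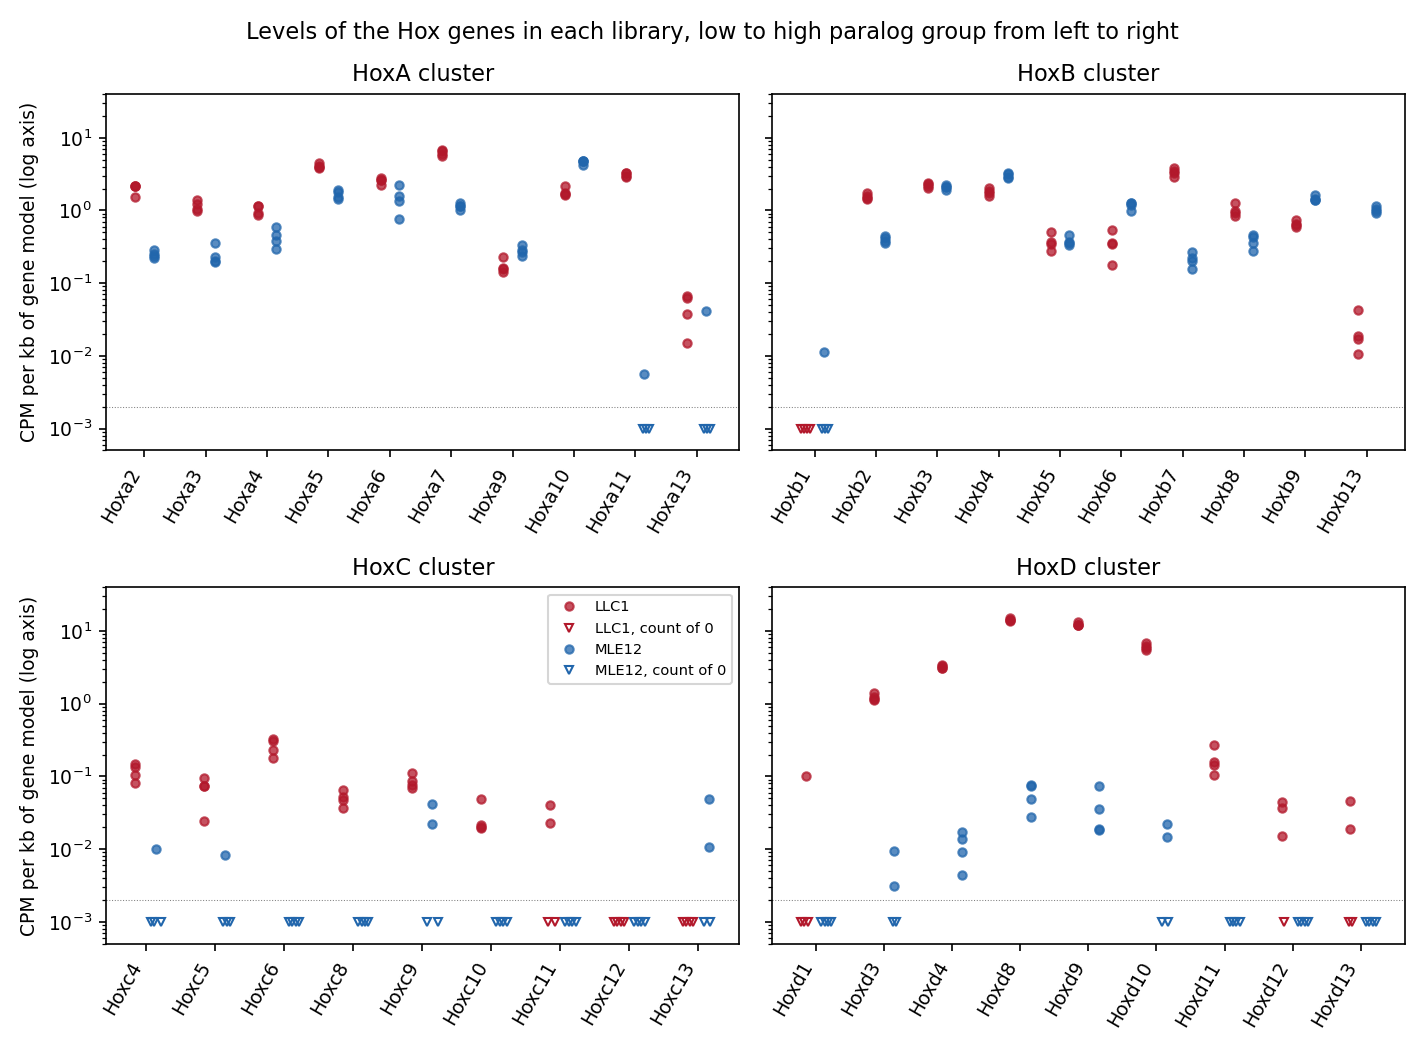
Level of each Hox gene named here in each library, in CPM per kilobase of gene model on a log axis, with LLC1 in red and MLE12 in blue. Each panel is a cluster, from the lowest to the highest paralog group, and open triangles under the dotted line are counts of 0. The LLC1 points lie far above the MLE12 points from Hoxd3 to Hoxd10 and at Hoxa11, and the higher line alternates along HoxB.

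Ordered by start position, the genes followed their paralog numbers in HoxA and HoxB. Exceptions were the models of Hoxc5, which begins near Hoxc10, and of Hoxd3 and Hoxd4, so paralog number was used for the order throughout. Genes with a mean of at least 1 CPM numbered 21 in LLC1 and 14 in MLE12, or 18 and 8 at 2 CPM. In LLC1 they formed runs that included Hoxa2 to Hoxa7, Hoxa10 to Hoxa11, Hoxb2 to Hoxb5, Hoxb7 to Hoxb9 and Hoxd3 to Hoxd10. In MLE12 they were Hoxa3 by itself, Hoxa5 to Hoxa10, Hoxb2 to Hoxb6 and Hoxb8 to Hoxb13, with nothing in HoxC or HoxD. The runs depend on the cutoff of 1 CPM. Near it lay Hoxb8 (1.001 CPM), Hoxb5 (1.06) and Hoxa6 (1.30) in MLE12, and Hoxb5 (1.04) and Hoxa9 (0.965) in LLC1. In the order of levels per kilobase, LLC1 ran from Hoxd8 and Hoxd9 over Hoxa7, Hoxd10, Hoxa5 (4.07 ± 0.250 CPM per kb) and Hoxb7 (3.39 ± 0.417) down to Hoxb5 (0.372 ± 0.0933). From Hoxa5 to Hoxa11 (3.10 ± 0.205) each gene in that order overlapped with the next. In MLE12 the order was Hoxa10, Hoxb4, Hoxb3 (2.09 ± 0.138 CPM per kb), Hoxa5 (1.66 ± 0.217), Hoxa6 (1.49 ± 0.617) and Hoxb9 (1.47 ± 0.108), and from Hoxb3 to Hoxb9 neighbours in the order overlapped. These orders rest on the deposited gene lengths, and how reads in overlapping genes were counted is not stated. For Hoxa7 the deposited length is 3761 bases, against 2876 exon bases in the annotation used for overlaps. Of those exon bases, 20.4% are shared with Hoxaas3.

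Genes of the same paralog group could differ in direction between clusters. Hoxa9 and Hoxb9 were higher in MLE12 (-0.69 and -1.17), and Hoxd9 was higher in LLC1 (8.49). Likewise Hoxa10 had a log2 fold change of -1.38 and Hoxd10 one of 9.39. The absolute difference in log2 fold change had a median of 0.99 over 21 pairs of neighbours in a cluster and of 4.80 over 18 pairs of paralogs in different clusters. Pairs of HoxA with HoxB paralogs alone had a median of 1.58 over 7 pairs. That value cannot be set against 0.99, which includes the HoxD neighbours. The HoxD neighbours ran from 0.11 for Hoxd4 and Hoxd8 to 0.90 for Hoxd9 and Hoxd10. The median of 4.80 in turn includes pairs of a HoxD gene with a HoxA or HoxB paralog, such as Hoxa10 and Hoxd10 (10.77). So 0.99 against 4.80 does not show that neighbours within HoxA and HoxB are more alike than their paralogs. In HoxA and HoxB several neighbours differed by more than 1.58, such as Hoxa6 and Hoxa7 (1.67). These are descriptions: the pairs share genes, and members with no MLE12 count were left out. Some differences between neighbours were large, with 11.67 for Hoxa10 and Hoxa11 and 5.72 for Hoxb6 and Hoxb7.

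**Figure D4:**
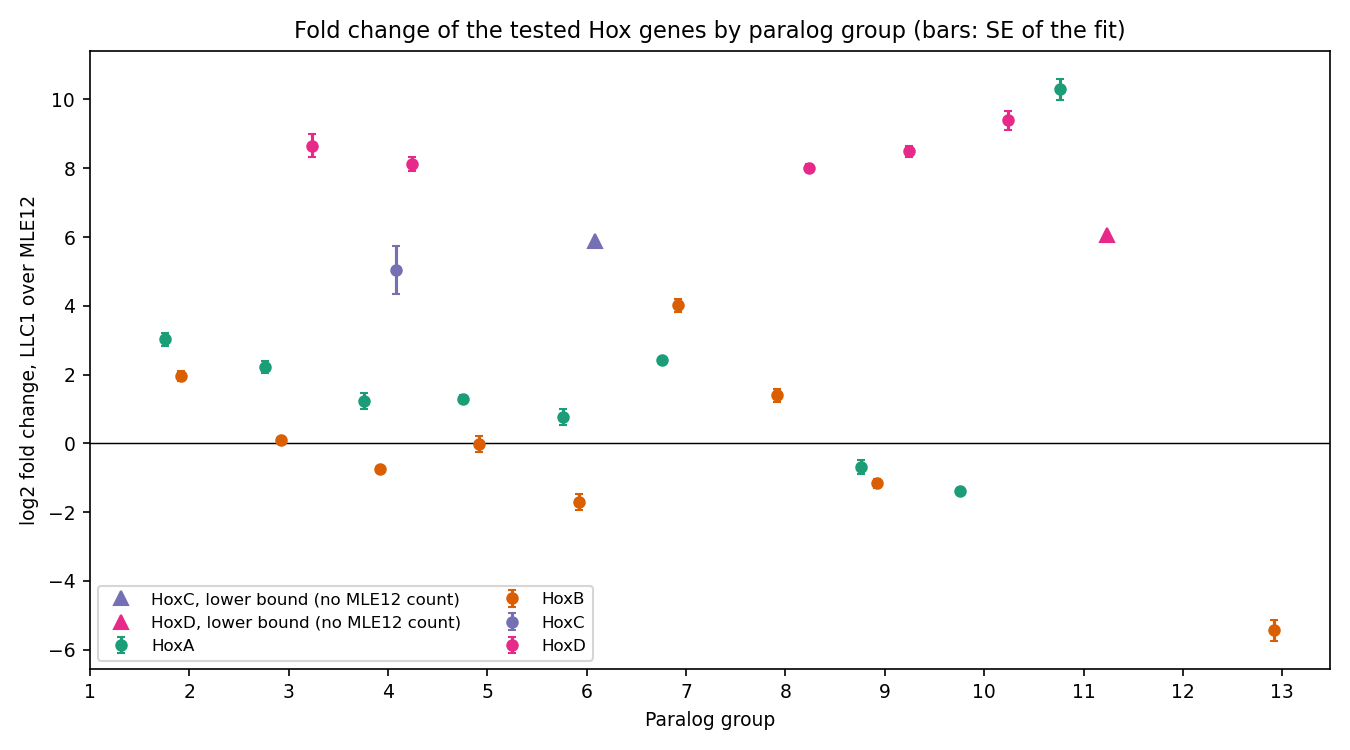
Log2 fold change of LLC1 over MLE12 with the SE of the fit for the tested Hox genes that are named here, by paralog group from 1 to 13 and coloured by cluster, with triangles for the lower bounds of Hoxc6 and Hoxd11. The 5 HoxD points with MLE12 counts lie from 8.01 to 9.39, while HoxA and HoxB points lie between -1.70 and 4.02 apart from Hoxa11 at 10.30, which rests on 1 MLE12 count, and Hoxb13 at -5.44.

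Added over the clusters, the level of a paralog group per kilobase differed least between the lines for group 6, at 3.19 CPM per kb in LLC1 and 2.66 in MLE12. It differed most among groups above 1 CPM per kb in both lines for group 9, at 13.3 and 1.81, and for group 7, at 9.61 and 1.36. Group 8 came to 15.3 in LLC1 and 0.436 in MLE12. Group 10 came to 7.86 and 4.68, with Hoxd10 the main part in LLC1 and Hoxa10 in MLE12. Group 13 stood at 0.0836 and 1.05, the latter almost all Hoxb13.

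The clusters also hold microRNA genes of the miR-10 and miR-196 families, which are known to act on Hox messenger RNAs. Their mature sequences from RefSeq (GRCm38.p6) are shown with the seed, bases 2 to 8, in capitals, since members of a family share it across clusters.
miR-10a-5p, HoxB, chr11:96317186-96317208, plus strand: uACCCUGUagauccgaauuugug
miR-10b-5p, HoxD, chr2:74726074-74726096, plus strand: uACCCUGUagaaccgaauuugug
miR-196a-5p, HoxB and HoxC, chr11:96265187-96265208 and chr15:102973365-102973386, plus strand: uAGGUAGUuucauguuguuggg
miR-196b-5p, HoxA, chr6:52230129-52230150, minus strand: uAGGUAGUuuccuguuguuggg
Libraries of fragmented poly-A RNA do not measure mature microRNAs, so the counts at these loci are of longer transcripts. Mir10b, inside the Hoxd3 and Hoxd4 models, had 2, 3, 2 and 2 counts in LLC1 and 0 in MLE12. Mir196a-1, between Hoxb9 and Hoxb13, had 0 in LLC1 and 6, 2, 7 and 0 in MLE12. Mir10a, near Hoxb4, had 1, 3, 3 and 2 in LLC1 and 0, 4, 2 and 0 in MLE12. Apart from Mir10a, these low counts lay in the line with more RNA of the neighbouring Hox genes, and none of the loci had enough to be tested. Mir196b, inside the Hoxa9 model, had 1 count in LLC1 and 5 in MLE12.

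RefSeq windows were matched for 22 of the 39 genes, 9 in HoxA, 3 in HoxB, 1 in HoxC and 9 in HoxD. The median number of CG pairs in the 250 bases was 12, from 2 at Hoxd11 to 35 at Hoxa13. The letters TATAAA, on either strand, were found in 3 of the 22 (13.6%) and in 12.4% of all windows. TGATNNAT, a form of the joint site of Hox and Pbx proteins, was found in 3 (13.6%) and in 7.68% of all windows. AGGTCA, the usual retinoic acid receptor unit, was found in 6 (27.3%) and in 14.02% of all windows. Matches of different motifs did not overlap in these windows, and 4 of the 6 AGGTCA windows were in HoxD, at Hoxd3, Hoxd4, Hoxd8 and Hoxd10. A match is a run of letters and not a shown binding site.

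Proteins that work with Hox factors or set their expression were described from lists of 66 genes. The counts below stand beside 40.7% of all genes tested called higher in LLC1 and 40.9% in MLE12. Of the cofactors of the TALE class (Pbx, Meis and Pknox), which bind DNA together with Hox proteins, 8 of 9 were tested, with 6 higher in LLC1 and 2 higher in MLE12. Meis1 stood at 31.4 ± 2.75 and 2.92 ± 0.420 CPM, a log2 fold change of 3.44 ± 0.09. Meis2 stood at 20.4 ± 1.05 and 3.002 ± 0.363 CPM (2.75 ± 0.09). Pbx4 went the other way, at 1.35 ± 0.0837 and 14.7 ± 0.858 CPM (-3.45 ± 0.10).

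Polycomb group genes, whose products keep silent Hox genes silent, were all tested. Of 24, 11 were called higher in each line and 2 had no call, with a median of -0.06 and no difference of 8-fold. The largest among genes of at least 10 CPM were for Phf19, an accessory subunit of the H3K27 methyltransferase complex (27.6 ± 1.56 and 3.83 ± 0.419 CPM, 2.84 ± 0.08), the chromodomain gene Cbx7 (52.6 ± 0.670 and 11.8 ± 1.49 CPM, 2.15 ± 0.07) and Pcgf1 (1.39 ± 0.08). Of 16 trithorax, MLL and H3K27 demethylase genes, which act to keep Hox genes active, 8 were higher in each line, again with no difference of 8-fold and a median of -0.02. The demethylase genes Kdm6a (-1.15 ± 0.05) and Kdm6b (1.02 ± 0.05) went in opposite directions, and the elongation factor Mllt3 was higher in LLC1 (1.13 ± 0.05).

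Retinoic acid receptors, enzymes of retinoic acid and other upstream regulators of Hox genes differed more. Of 17 genes 13 were tested, 5 higher in LLC1 and 8 higher in MLE12, with 6 differences of at least 8-fold. Over all genes tested, called differences of that size made up 6.64% toward LLC1 and 8.31% toward MLE12. Rarb, a receptor that is itself induced by retinoic acid, stood at 0.540 ± 0.142 and 61.0 ± 2.56 CPM (-6.81 ± 0.10). The retinaldehyde dehydrogenase genes Aldh1a1 (0.282 ± 0.0872 and 43.4 ± 0.733 CPM, -7.27 ± 0.11) and Aldh1a3 (-4.28 ± 0.11) were higher in MLE12. Cdx2, a caudal-type regulator of trunk Hox genes named here after its values were seen, stood at 4.49 ± 0.649 and 0.772 ± 0.0996 CPM (2.52 ± 0.16). Whether any of these genes has a part in the Hox differences was not tested.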

How the data were processed

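Poly-A RNA of 4 LLC1 and 4 MLE12 libraries was sequenced. The authors deposited 1 table of raw counts per gene, with positions on mm10 and gene lengths. CASAVA, TopHat2, featureCounts and edgeR were used, per the submitters' processing notes, and their versions and settings are not given in the sources used here. Counts of 2 were more frequent than counts of 1 in every library, as if the mates of a fragment had been counted apart, so counting intervals are too narrow. All 43346 genes entered edgeR 4.0.16 (R 4.3.3). Its filterByExpr removed genes of low counts, libraries were scaled by TMM, and the lines were compared by a robust quasi-likelihood test with Benjamini-Hochberg adjustment over 18546 genes, tested on simulated data. Levels per kilobase use the deposited gene length.

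The Hox genes and the companion lists were chosen with earlier results of these data known. Library values are given for Hox genes with a mean of at least 10 CPM and for those at the ends of runs of neighbouring detected genes, with detection at a mean of 1 CPM. From each companion list the 3 called genes with the largest differences among those reaching 10 CPM in either line are named. Sequences are from RefSeq tables of GRCm38.p6. The alternatives were DESeq2 1.42.0, other size factors, other filters, each library left out, and the replicate number as a block. Replicate libraries differed by more than sampling noise, so all 8 were kept. A Hox gene and a companion gene that enter the counts are not reported here by name.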

Additional observations from a re-analysis of the deposited data

Results flagged for a closer look

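In 10 of 66 sets of 4 libraries checked, 1 library lay apart from the other 3 by Dixon's 95% criterion. For continuous values chance gives about 1 in 20. A set with counts in 1 library alone is always flagged, so the 10 cannot be weighed against that rate. Among genes above 1 CPM, Hoxa2 was low in LLC1 replicate 3 at 2.56 CPM, Hoxa10 was high in LLC1 replicate 1 at 7.07 CPM, and Hoxa10 was low in MLE12 replicate 2 at 13.96 CPM. The other 7 sets had few counts. MLE12 replicate 1 held all counts of Hoxa11 (0.0129 CPM), Hoxa13 (0.103 CPM), Hoxb1 (0.0259 CPM) and Hoxc5 (0.0259 CPM) in that line, and MLE12 replicate 3 all those of Hoxc4 (0.0254 CPM). In LLC1, Hoxc10 was highest in replicate 1 at 0.0925 CPM, and Hoxd1 had counts only in replicate 4, at 0.190 CPM.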

How the results depend on the processing

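Of the 27 tested Hox genes, 25 kept their direction and their side of the threshold in each of the 15 alternative fits that tested them. The number of genes called depended on the filter. With no filter, 27 of 38 Hox genes were higher in LLC1 and 7 in MLE12. With a filter of 1 CPM in 4 libraries, 16 of 24 were higher in LLC1 and 6 in MLE12. Hoxb3 and Hoxb5 had no call in any fit and changed sign around 0. Hoxb3 moved to -0.012 with library totals alone. Hoxb5 moved to 0.039 with upper-quartile factors and to 0.036 with a filter of 1 CPM in 4 libraries, and ran from -0.19 to 0.10 with 1 library left out. Without a filter on low counts the median log2 fold change moved to -0.43 for HoxB, 4.56 for HoxC and 8.07 for HoxD. With 1 library left out, the medians ran from 4.67 to 7.10 for HoxC and from 8.26 to 8.69 for HoxD. In each fit that gave a HoxC median of 4.67, 4.81, 5.20 or 7.10, 3 HoxC genes passed the filter in place of 2, with Hoxc5 as the added gene. The HoxB median lay near 0 and changed sign between -0.19 and 0.08. At a filter of 1 CPM in 4 libraries no HoxC gene was left, so that alternative gave no HoxC median. With a mean of 2 CPM for detection, 8 Hox genes were detected in MLE12. Same-numbered libraries of the lines correlated at -0.0068, 0.108, 0.0801 and -0.0646 in their deviations across genes. Not every library correlated best with its own number. With 4 libraries per line this cannot tell whether same-numbered libraries were prepared together. With the replicate block, 19 Hox genes were higher in LLC1 and 6 in MLE12, and the medians were 1.62, -0.05, 6.65 and 8.46 for HoxA, HoxB, HoxC and HoxD. Depth limits the size of every fold change against a line with fewer than about 10 counts.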
